A study of Mus musculus with 6 samples.

Results

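The genes described here are Vegfa, the main ligand of the vascular endothelial growth factor (VEGF) system, and 9 genes of the endothelium that lines the islet's capillaries. The 9 are the receptor genes Flt1, Kdr, Tek and Tie1, the junction genes Cdh5, Pecam1 and Esam, the guidance receptor gene Robo4 and the fenestral diaphragm gene Plvap. They were taken by name as 10 rows of the 53670 in the deposited count table, and all 10 were among the 15915 genes with enough counts to be tested. Each held at least 251 counts in every library, and Vegfa reached 6975.

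Pancreatic islets are among the most densely supplied tissues of the body, and their capillaries are fenestrated, with small windows that let hormones pass quickly into blood. Beta cells secrete VEGF-A, which binds KDR (VEGFR2), the receptor that carries most of its signal in endothelial cells, and FLT1 (VEGFR1), which binds it more tightly and signals less, so that it also acts as a trap. TEK (TIE2) receives angiopoietins and keeps vessels quiescent, and TIE1 is its partner receptor, which binds no angiopoietin strongly by itself. In mice without VEGF-A in the pancreatic or beta cell lineage, islet capillaries are sparse and lose fenestrae.

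The islets came from 6-week-old mice and were freed with collagenase. The 3 wild-type (WT) libraries carry the genotype Paupar +/+, and the 3 knockout (KO) libraries carry Paupar -/-, without the long noncoding RNA gene Paupar. The sources used here do not give the strain, how the allele was made or how many mice went into a library. The KO libraries read as differing in sex by counts given below, so they do not all come from the same mice. Whether the WT libraries come from different mice was not tested, and the spread behind every p-value may thus be technical in part. The one comparison sets KO against WT, which addresses the effect of losing Paupar on islet gene expression.

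Total counts ran from 25733194 to 27285009 per library. Replicates are given in the order 1, 2 and 3 throughout. Counts of Paupar itself were 177, 252 and 111 (WT) and 4, 0 and 4 (KO), where a count of 0 allows up to 3 by counting error alone. The hormone genes Ins1, Ins2, Gcg, Sst, Ppy and Chga and the beta cell factors Pdx1 and Mafa together made up 250610 to 270370 CPM (the usual counts-per-total unit, with each total corrected by its TMM factor) in WT and 301260 to 309890 in KO, so the tissue label holds in every library. The libraries did not match in every other respect. Ins1 and Ins2 were higher in every KO library, as were 11.3% of all tested genes. Their means were 55802 and 146690 CPM in WT and 71797 and 178720 CPM in KO. The groups overlapped for the other hormone genes and for Pdx1 and Mafa. Xist, transcribed from the inactive X chromosome, was counted 1, 6 and 3 times in WT libraries but 0, 1120 and 862 times in KO libraries, while the Y-linked Ddx3y was counted 1715, 1316 and 1830 times in WT libraries but 1693, 2 and 0 times in KO libraries. By these counts KO replicates 2 and 3 read as female and the other 4 libraries as male, although the sample labels give no sex. Sex thus differs in part with genotype, and in the full comparison the 2 cannot be told apart. The fold changes and calls of the named genes and the summed endothelial level were also computed without KO replicates 2 and 3.

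Vegfa was lower and most of the endothelial genes were higher in KO islets, by modest amounts, and none of the 10 passed the test over all genes. Of the 9 endothelial genes, 8 had a positive log2 fold change, and their median was 0.39 against 0.00 for all 15915 tested genes. By edgeR's quasi-likelihood test 0 of the 10 reached an adjusted p below 0.05, where 0% of tested genes were called higher and 0.17% lower. In simulated counts with the gene-wise spread of these libraries, 19.4% of genes changed 1.5-fold were called. Each of the 10 differed by less than that on average, Flt1 most at 1.48 times, so a missing call says little here. At an unadjusted p below 0.05, 7 of the 9 endothelial genes were higher, against 6.99% of tested genes. DESeq2, which called 1.96% of the genes it adjusted as higher, called 3 of the 10, namely Flt1, Kdr and Cdh5. In bulk islets, fewer or more endothelial cells and less or more RNA per endothelial cell cannot be told apart. A list of endothelial genes had already been seen to be higher in these libraries when the members were chosen, so the common direction is a description and not independent evidence.

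**Figure D1:**
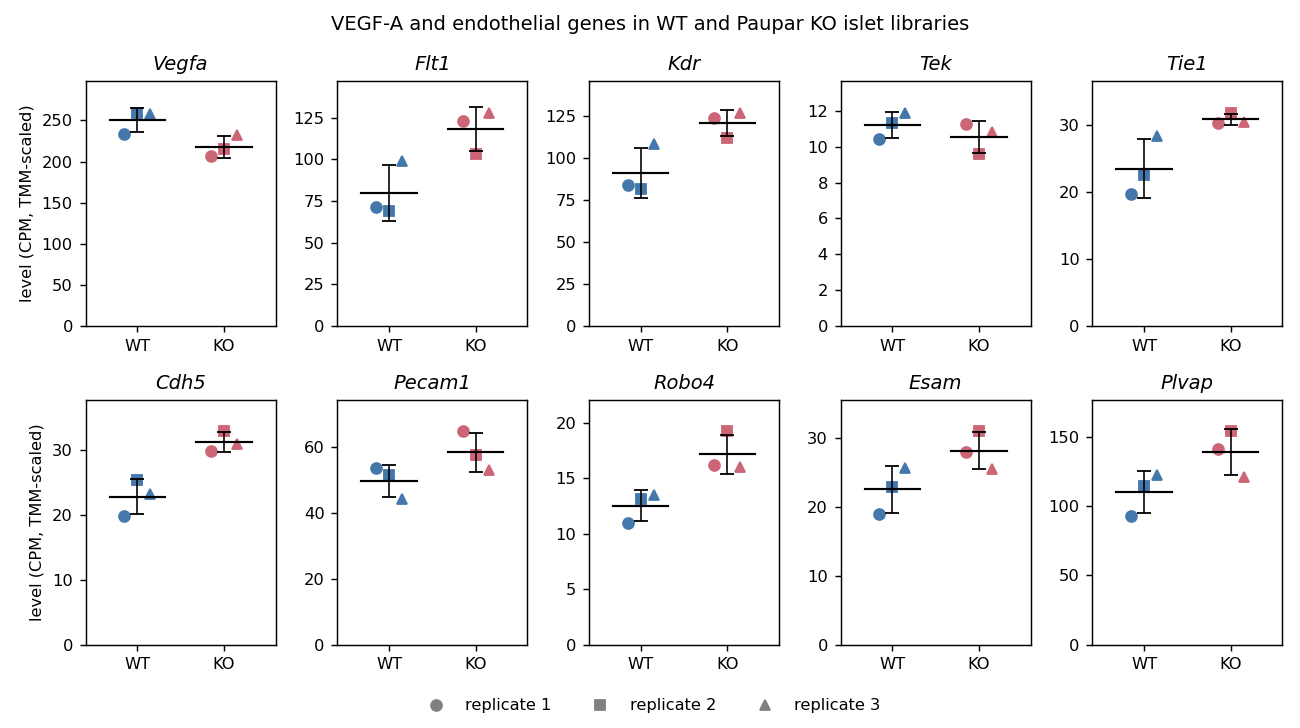
Level of each gene in CPM, scaled by TMM factors (y axes, each from 0), in the 3 WT and 3 KO libraries, with the mean and SD of each group in black and marker shapes for the replicate numbers. Vegfa is lower in each KO library, Flt1, Kdr, Tie1, Cdh5 and Robo4 are higher in each, and the groups overlap for Tek, Pecam1, Esam and Plvap.

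Vegfa, which encodes the ligand, is on chromosome 17 (46153942 to 46169326, minus strand, mm9) and has 4293 bp of annotated exon. It stood at 233.8, 259.1 and 258.1 CPM in WT and at 206.8, 214.9 and 232.9 CPM in KO. All KO libraries lay below all WT libraries, although the highest KO and the lowest WT library were almost level. The difference of -12.8% (log2 fold change -0.20, SE 0.08) did not pass (edgeR adjusted p = 0.287), and its unadjusted 95% interval ran from -0.39 to -0.01. At an unadjusted p below 0.05 Vegfa was among 9.38% of tested genes that were lower, and 12.1% had every KO library below every WT library. Counts per gene do not separate the splice forms of VEGF-A, which differ in how far they diffuse.

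The 2 VEGF receptor genes lie on chromosome 5 and showed the same order of libraries. Flt1 (148373180 to 148537587, minus strand, 11583 bp of exon) stood at 71.5, 69.2 and 99.3 CPM in WT and at 123.2, 103.1 and 127.9 CPM in KO. Kdr (76328852 to 76374483, minus strand, 7278 bp of exon) stood at 83.9, 81.3 and 108.1 CPM in WT and at 123.8, 111.8 and 126.7 CPM in KO. In both genes WT replicate 3 was the highest of the WT libraries and came close to KO replicate 2, the lowest of the KO libraries, and the groups did not overlap. Flt1 had the largest fold change of the 10 genes, 0.56 on the log2 scale (SE 0.16, edgeR adjusted p = 0.184), and Kdr had 0.41 (SE 0.12, edgeR adjusted p = 0.2). Without WT replicate 3 these values were 0.76 (edgeR adjusted p = 0.0539) and 0.56 (edgeR adjusted p = 0.0559), and without WT replicate 2 they were 0.47 and 0.33. Reads of soluble FLT1, a shorter secreted form that traps VEGF-A, are counted with those of the membrane receptor.

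The angiopoietin receptor gene and the gene of its partner had values of opposite sign. Tie1 (chromosome 4, 118143796 to 118162666, minus strand) stood at 19.7, 22.5 and 28.3 CPM in WT and at 30.3, 31.8 and 30.4 CPM in KO. Every KO library was above every WT library, and the 3 KO values lay within a narrow band while the WT values spread. The log2 fold change was 0.39 (SE 0.13, edgeR adjusted p = 0.236), and 0.56 without WT replicate 3. Tek (chromosome 4, 94405980 to 94541667, plus strand) stood at 10.4, 11.3 and 11.9 CPM in WT and at 11.3, 9.58 and 10.8 CPM in KO. WT replicate 1 lay within the range of the KO libraries and the other WT libraries above it, with a log2 fold change of -0.09 (SE 0.11, edgeR adjusted p = 0.745) and an interval of -0.35 to 0.18. Tek was the only endothelial gene of the 9 with a negative value, and with KO replicate 1 alone against WT it was 0.01.

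The stretches of 250 bases before the RefSeq transcription start are shown for these 4 receptor genes, 3 with a higher level and 1 without, since the start regions of endothelial genes are known to be bound by ETS factors. They are read 5′ to 3′ along the gene on GRCm38.p6, at chr5:147726012-147726261 (minus strand), chr5:75978456-75978705 (minus), chr4:118489850-118490099 (minus) and chr4:94739039-94739288 (plus), and capitals mark AGGAAG or its reverse complement CTTCCT, letters found in many ETS sites.
Flt1: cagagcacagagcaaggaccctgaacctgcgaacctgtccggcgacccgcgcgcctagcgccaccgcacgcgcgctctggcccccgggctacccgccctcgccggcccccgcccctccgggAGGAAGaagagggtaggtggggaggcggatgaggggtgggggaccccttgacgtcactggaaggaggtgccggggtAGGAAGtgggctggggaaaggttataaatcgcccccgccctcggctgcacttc
Kdr: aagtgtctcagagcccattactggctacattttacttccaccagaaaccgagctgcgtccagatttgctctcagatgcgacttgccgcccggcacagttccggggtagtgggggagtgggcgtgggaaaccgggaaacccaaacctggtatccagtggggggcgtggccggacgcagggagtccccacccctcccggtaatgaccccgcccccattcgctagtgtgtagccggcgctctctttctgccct
Tie1: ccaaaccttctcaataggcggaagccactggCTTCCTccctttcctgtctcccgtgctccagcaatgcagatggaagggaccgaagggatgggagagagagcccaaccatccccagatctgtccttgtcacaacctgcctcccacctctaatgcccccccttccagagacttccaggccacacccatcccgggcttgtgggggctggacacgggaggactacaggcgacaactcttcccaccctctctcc
Tek: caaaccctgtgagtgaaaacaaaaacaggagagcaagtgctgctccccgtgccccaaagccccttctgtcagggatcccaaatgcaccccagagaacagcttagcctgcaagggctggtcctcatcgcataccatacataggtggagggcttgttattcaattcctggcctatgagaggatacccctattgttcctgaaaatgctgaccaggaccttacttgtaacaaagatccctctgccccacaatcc
AGGAAG was 1 of 9 strings searched on both strands and was picked for display after the matches had been seen. The strings GGAAGT and also CAGGAA each overlap it by 5 letters. The other strings were the hypoxia core ACGTG, the SOX-like ACAATG, the GATA-like TTATCT, the longer ETS-like AACCGGAA, the TATA box TATAAA and plain GATA. Flt1 held 2 matches, Tie1 held 1, and Kdr and Tek held 0. RefSeq starts were matched by symbol for 6 of the 10 genes, and Robo4 held 1 match and Vegfa 0. The motif was present before 29.5% of the 32851 starts in the table, so a match is common, and its absence says only that these letters are not in this window. Which genes match depends on the string. GGAAGT, present before 19.7% of starts, was found for Flt1, Kdr and Tie1, and CAGGAA, present before 25.7%, was found for Tek, Tie1, Robo4 and Vegfa.

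Among the junction genes the largest value was that of Cdh5. Cdh5 encodes VE-cadherin, the adhesion molecule of endothelial adherens junctions (chromosome 8, 106625525 to 106668402, plus strand). It stood at 19.8, 25.3 and 23.1 CPM in WT and at 29.7, 32.8 and 30.9 CPM in KO. The groups were well apart, and Cdh5 had the lowest adjusted p of the 10 genes (log2 fold change 0.45, SE 0.11, edgeR adjusted p = 0.15). Esam, an immunoglobulin-family molecule of endothelial tight junctions that platelets also carry (chromosome 9, 37335663 to 37345904, plus strand), stood at 19.0, 23.0 and 25.8 CPM in WT and at 28.0, 31.0 and 25.6 CPM in KO. KO replicate 3 lay just under WT replicate 3, and the log2 fold change was 0.32 (SE 0.13, edgeR adjusted p = 0.292). Without WT replicate 1 it was 0.22.

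Pecam1 encodes CD31, found at endothelial cell contacts and also on platelets and leukocytes (chromosome 11, 106515531 to 106611942, minus strand). It stood at 53.7, 51.5 and 44.3 CPM in WT and at 64.8, 57.6 and 52.9 CPM in KO. WT replicate 3, the highest WT library for the VEGF receptors, was the lowest for Pecam1, and KO replicate 3 lay below WT replicate 1. The log2 fold change of 0.23 (SE 0.11, edgeR adjusted p = 0.345) was the smallest of the positive ones in this fit. The leukocyte gene Ptprc stood at 103.5, 101.3 and 21.3 CPM in WT and at 61.5, 36.2 and 35.7 CPM in KO, so that WT replicate 3 was lowest in both genes. Ptprc was the only negative value of the 6 leukocyte and macrophage markers, whose median log2 fold change was 0.32. The macrophage gene Csf1r stood at 12.4, 13.6 and 24.8 CPM in WT and at 25.6, 24.3 and 16.1 CPM in KO, with WT replicate 3 the highest of WT. Of the 6 platelet markers, Pf4 and Ppbp were at or near 0, with at most 0.191 CPM in any library. Gp9 stood at 0.187, 0.111 and 0.185 CPM in WT and at 0.532, 0.801 and 0.565 CPM in KO, without overlap (1.94, SE 0.39, edgeR adjusted p = 0.119), and the summed level of the 6 was 3.05 to 4.11 CPM in WT and 3.23 to 5.19 CPM in KO. The part of leukocytes and platelets in the Pecam1 and Esam values was not tested. Without KO replicate 1 Pecam1 was at 0.15, with KO replicate 1 alone at 0.38 and with an acinar covariate at 0.33.

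Robo4 encodes a roundabout-family receptor that stabilises vessels and counters VEGF signalling (chromosome 9, 37209482 to 37221608, plus strand). It stood at 11.0, 13.1 and 13.5 CPM in WT and at 16.2, 19.2 and 16.0 CPM in KO. The groups did not overlap, and the log2 fold change of 0.45 (SE 0.12, edgeR adjusted p = 0.181) was as large as that of Cdh5. Plvap encodes the protein of the diaphragms that span fenestrae, and thus marks the fenestrated kind of capillary that islets have (chromosome 8, 74021653 to 74035668, minus strand). It stood at 92.9, 114.4 and 122.3 CPM in WT and at 141.4, 153.8 and 120.9 CPM in KO. KO replicate 3 lay just under WT replicate 3, and the log2 fold change was 0.34 (SE 0.13, edgeR adjusted p = 0.276). Plvap overlaps Gtpbp3 on the opposite strand, which held 331 to 425 counts per library, so some reads may have been lost or shared. Apart from a small nucleolar RNA gene within Pecam1, no other gene of the 10 overlaps an annotated gene.

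**Figure D2:**
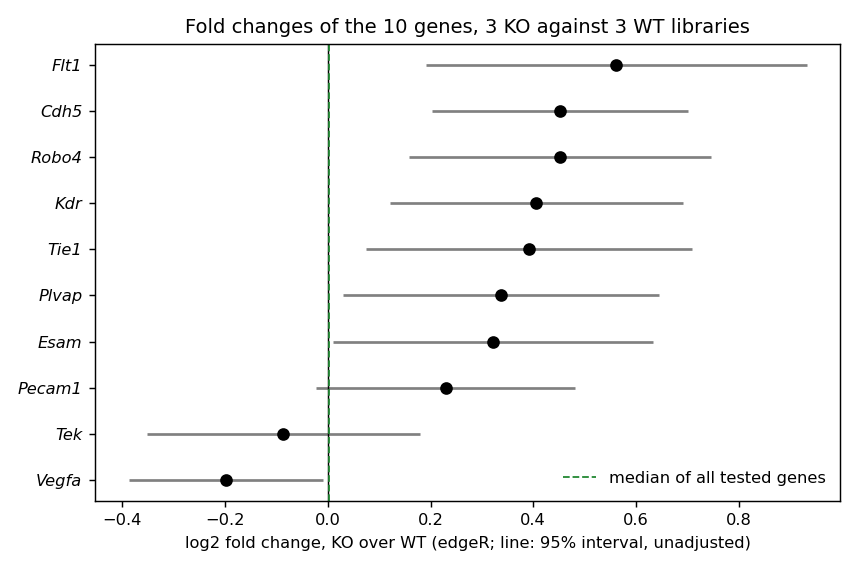
Log2 fold change of KO over WT for each of the 10 genes (points, x axis) with unadjusted 95% intervals (lines), from edgeR on 3 KO and 3 WT libraries; the dashed line is the median of all 15915 tested genes. The 8 endothelial genes other than Tek lie between 0.23 and 0.56, Tek at -0.09 and Vegfa at -0.20.

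Several counts rested on the scaling or on single libraries. With TMM scaling 5 of the 9 endothelial genes, Flt1, Kdr, Tie1, Cdh5 and Robo4, had every KO library above every WT library, against 11.3% of all tested genes. With CPM of the plain total count this held for 2 of the 9, Cdh5 and Robo4, and with insulin and acinar genes taken out of the total it held for 5 again. The number of endothelial genes higher at an unadjusted p below 0.05 was 4 without WT replicate 2, against 4.76% of all genes tested in that fit. It was 4 without KO replicate 2, against 4.15%, and 2 with KO replicate 1 alone against WT, against 2.43%. In the other fits with 1 library left out it was 5 without WT replicate 1 (4.5% of all genes tested), 7 without WT replicate 3 (9.18%), 5 without KO replicate 1 (6.06%) and 8 without KO replicate 3 (4.41%). The 8 positive directions stayed in each of the 16 alternatives, and with KO replicate 1 alone Tek made it 9. Acinar markers, from digestive enzyme cells carried along in islet preparations, summed to between 24153 and 76082 CPM in WT and between 17951 and 47026 CPM in KO. With their level as a covariate Flt1 was at 0.47 and Kdr at 0.33 on the log2 scale, closer to 0, while Pecam1 was at 0.33 and Vegfa at -0.26, farther from 0.

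Exonic length and GC content also moved with the comparison. Over 14787 annotated genes the Spearman correlation of exonic length with the log2 fold change was -0.233, and that of GC content was -0.185, given as a description since genes are not independent. All of the 9 endothelial genes but Esam and Plvap are longer than the median tested gene of 3522 bp, and Flt1 and Kdr are the longest. With smooth offsets for length and GC, Flt1 was at 0.72, Robo4 at 0.57, Tie1 at 0.53, Cdh5 at 0.51, Kdr at 0.50 and Plvap at 0.41, each farther from 0 than without them, and Vegfa was at -0.13. None of the 10 passed with the offsets, with edgeR adjusted p-values from 0.215 for Cdh5 to 0.825 for Tek.

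Compared per length, the genes formed a wide ladder. In WT Vegfa was highest at 58.3 ± 3.34 CPM per kilobase of exon (SD, n = 3), and Plvap followed at 54.5 ± 7.55, with ranges that overlapped. In KO the order turned, with Plvap at 68.8 ± 8.25 and Vegfa at 50.8 ± 3.10 CPM per kilobase and ranges apart. The fenestral gene thus stood level with the ligand in WT and above it in KO. Kdr came next, at 12.5 ± 2.03 in WT and 16.6 ± 1.09 in KO, and Pecam1 after it, at 11.5 ± 1.14 and 13.5 ± 1.38. In WT the ranges of Kdr and Pecam1 overlapped, as did those of neighbours from Esam through Flt1 and Cdh5 to Tie1. Robo4 and Tek closed the order in both groups, at 3.05 ± 0.333 and 2.38 ± 0.156 in WT and at 4.17 ± 0.437 and 2.24 ± 0.188 CPM per kilobase in KO, each apart from its neighbours. Between Plvap and Tek, genes of the same vessels, the level per length thus differed widely in each library.

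Ratios between genes of the same library do not depend on how libraries are scaled. Vegfa counts were 0.612, 0.629 and 0.542 of the summed counts of the 9 endothelial genes in WT and 0.364, 0.390 and 0.430 in KO. Ligand relative to endothelium was thus lower in every KO library, with a mean of 0.594 ± 0.0465 in WT and 0.395 ± 0.0331 in KO (SD, n = 3). The summed level of the 9 genes itself was 382.0, 411.6 and 476.5 CPM in WT and 568.6, 550.6 and 542.2 CPM in KO, which is 1.31 times as high on average. With KO replicate 1 alone it was 1.34 times as high, and without KO replicate 1 it was 1.29 times as high. These sums were taken over genes chosen with earlier results known, and no test was made on them.

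Tek was lower relative to its partner in every KO library. Tek counts were 0.528, 0.503 and 0.420 of Tie1 counts in WT and 0.373, 0.301 and 0.355 in KO, without overlap. The share of Tek in the 9 genes was 2.73%, 2.75% and 2.49% in WT and 1.99%, 1.74% and 1.99% in KO. Every other gene's share overlapped between the groups. Flt1 relative to Kdr was 0.852, 0.852 and 0.919 in WT and 0.995, 0.923 and 1.01 in KO, with WT replicate 3 and KO replicate 2 nearly equal. Tie1 relative to Kdr (0.258 ± 0.0212 in WT and 0.257 ± 0.0244 in KO) and Robo4 relative to Cdh5 (0.551 ± 0.0321 and 0.550 ± 0.0336) differed between the groups by less than their SD. The difference between the fold changes of Tek and Tie1 was not tested.

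**Figure D3:**
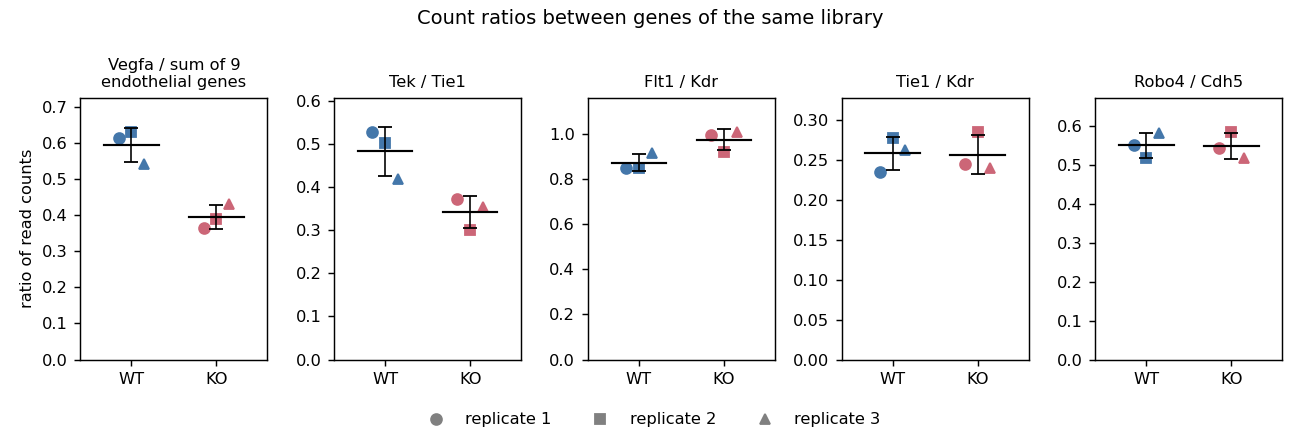
Ratio of read counts of 2 genes, or of Vegfa to the sum of the 9 endothelial genes, in each WT and KO library (y axes from 0), with mean and SD in black. Vegfa over the endothelial sum and Tek over Tie1 are lower in each KO library, Flt1 over Kdr is slightly higher in each, and the last pair of ratios overlap between the groups.

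Across the 6 libraries some members followed each other closely. Flt1 and Kdr followed each other most closely, with a Pearson correlation of log2 CPM of 0.998, and Esam and Plvap had 0.988. Cdh5 and Robo4 had 0.963. Pecam1 followed none of the others beyond 0.515, and Tek was negatively related to 7 of the other 8 endothelial genes, with -0.429 to Pecam1 at the lowest and 0.00736 to Flt1 at the highest. Vegfa was negatively related to all but Tek, most to Pecam1 at -0.900. These values describe 6 libraries that share the genotype difference, their depth and their scaling factors. Among 12880 other genes with a mean of at least 1 CPM, those most like the mean of the 9 were Flt4, the VEGF-C receptor gene (r = 0.994), Dusp28, Tmbim6, Lama4, Wwtr1, Stk39, Tmem176a and Fbxw2, the last at 0.986. Lama4 encodes a laminin chain of vascular basement membrane, and stood at 12.3 ± 2.25 CPM in WT and 20.4 ± 0.249 CPM in KO (SD, n = 3), a log2 fold change of 0.73 (SE 0.14, edgeR adjusted p = 0.109). The genes most like Vegfa were Fbrsl1 (r = 0.994), Ccdc66, Dock6, Tusc1, Styx, Zer1 and Pcgf2, the last at 0.981. With 6 libraries such values are reached by many genes, since 84 and 74 genes passed 0.95 for the endothelial mean and for Vegfa.

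Of the other VEGF family genes that were tested, Flt4 and Nrp1 were higher in every KO library, as were 11.3% of all tested genes. The groups overlapped for the other tested ones of the family. The list held 7 genes, of which 6 were tested and 0 were called by edgeR in either direction, with a median log2 fold change of 0.15. The ligand genes Vegfb (0.05, SE 0.12), Vegfc (0.13, SE 0.32) and Pgf (0.07, SE 0.33) had overlapping groups, and Vegfd was too low to be tested, at no more than 0.723 CPM in any library. Flt4 stood at 7.81, 8.39 and 9.74 CPM in WT and at 11.9, 11.4 and 11.1 CPM in KO, without overlap (0.40, SE 0.12, edgeR adjusted p = 0.198). Nrp1, the neuropilin that binds VEGF-A beside KDR, was named after its values were seen. It stood at 36.4, 41.0 and 52.3 CPM in WT and at 64.4, 60.0 and 62.0 CPM in KO, again without overlap (0.52, SE 0.13, edgeR adjusted p = 0.165). Nrp1 passed in DESeq2 (adjusted p = 0.0151) and in edgeR without WT replicate 3, where it was at 0.69 (adjusted p = 0.0457). Nrp2, which mainly serves VEGF-C, overlapped between groups (0.17, SE 0.27). FLT4 also marks lymphatic endothelium, and of 5 lymphatic markers 3 were tested and 0 were called. These were Lyve1 (0.25, SE 0.37), Prox1 (-0.02, SE 0.15), whose value is the median, and Reln (-0.31, SE 0.49). Pdpn and Mmrn1 had too few counts to be tested. The part of lymphatic endothelium in the Flt4 value was not tested.

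Angiopoietin genes were low and did not pass. Of 3 tested genes of 4, 0 were called. Angpt1, the ligand that activates TEK, stood at 2.09, 1.34 and 0.963 CPM in WT and at 1.37, 0.878 and 0.301 CPM in KO (-0.78, SE 0.55). It ran from -1.31 without KO replicate 1 to -0.38 without KO replicate 3, was -0.43 without WT replicate 1, and was -0.32 with the acinar covariate. Angpt2, the antagonist made by endothelium, stood at 5.16, 6.98 and 7.63 CPM in WT and at 10.5, 6.45 and 10.6 CPM in KO (0.48, SE 0.24). Both overlapped between the groups. Ptprb, the phosphatase that restrains TEK, stood higher in each KO library (0.21, SE 0.09, edgeR adjusted p = 0.29). Of the ROBO4 partners, Unc5b (0.38, SE 0.22), Slit2 (-0.64, SE 0.37) and Slit3 (0.36, SE 0.26) overlapped, and 0 of 3 were called. Genes of tip cells and VEGF response gave 0 called of 6. Dll4 was at 0.16 (SE 0.11), Esm1 at 0.20 (SE 0.16), Apln at 0.45 (SE 0.40) and Kcne3 at -0.31 (SE 0.36). The remaining genes of the list, Nid2 and Cxcr4, were named after their values were seen. Nid2 stood higher in each KO library (0.48, SE 0.13, edgeR adjusted p = 0.176), as did 11.3% of all tested genes. Cxcr4 overlapped between the groups (-0.49, SE 0.49).

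Further endothelial markers had mostly positive values. Of 32 genes 30 were tested, 0 were called by edgeR, 24 had a positive value and the median was 0.25. At an unadjusted p below 0.05 there were 6 higher, against 6.99% of all tested genes, and 0 lower, against 9.38%. DESeq2 called 2 of them higher, Cd34 (adjusted p = 0.0104) and Adgrl4 (adjusted p = 0.0150). The co-receptor gene Eng (0.20, SE 0.11), the sialomucin gene Emcn (0.26, SE 0.16) and the ETS factor gene Erg (0.31, SE 0.18) had overlapping groups. Named after their values were seen, the 6 genes without overlap were Cd34, Cd93, Ecscr, Nos3, Adgrl4 and Adgrf5, all higher in KO, against 11.3% of all tested genes, and they are not all the same 6 as at an unadjusted p below 0.05, where Mmrn2 and Calcrl stand in place of Nos3 and Adgrf5. Cd34 stood at 16.5, 17.2 and 19.1 CPM in WT and at 24.3, 23.9 and 22.9 CPM in KO (0.43, SE 0.09, edgeR adjusted p = 0.121). Fli1, an ETS factor gene that leukocytes also use, stood at 8.56, 6.65 and 3.96 CPM in WT and at 5.70, 4.46 and 3.62 CPM in KO (-0.48, SE 0.31). Ets1, also named after its values were seen, stood at 60.5, 60.8 and 25.0 CPM in WT and at 53.2, 38.7 and 36.1 CPM in KO (-0.20, SE 0.34). In both, as in Ptprc but not in Csf1r, WT replicates 1 and 2 were highest of the WT libraries, and the part of leukocytes in these values was not tested. The remaining negative values of the list, also named after they were seen, were those of Egfl7 (-0.12, SE 0.12), Clec14a (-0.03, SE 0.09), Sox18 (-0.03, SE 0.27) and Lyl1 (-1.19, SE 0.71). Their groups overlapped. The leukocyte and macrophage markers summed to between 133.3 and 177.2 CPM in WT and between 86.3 and 223.3 CPM in KO.

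Mural cell genes, here a list of pericyte and smooth muscle markers, had positive values as well. Which cells these values come from was not tested. All 11 tested genes of 12 had positive values with a median of 0.42, and 0 were called by edgeR and 1, Mcam, by DESeq2. Rgs5, a pericyte gene, stood at 127.8, 111.4 and 146.6 CPM in WT and at 197.1, 155.3 and 162.5 CPM in KO, without overlap (0.42, SE 0.13, edgeR adjusted p = 0.214). Pdgfrb, the receptor that recruits pericytes, overlapped (0.26, SE 0.23), as did Notch3 (0.26, SE 0.14) and Cspg4 (0.06, SE 0.27). Of 7 genes known as inhibitors of angiogenesis 0 were called, and the median was 0.40. Thbs1, which encodes thrombospondin, stood at 33.2, 29.9 and 32.6 CPM in WT and at 49.7, 42.9 and 33.8 CPM in KO, with KO replicate 3 nearly level with WT (0.40, SE 0.14, edgeR adjusted p = 0.245). Thbs2 (1.04, SE 0.44), Adamts1 (0.54, SE 0.38) and Sparc (0.14, SE 0.13) overlapped between the groups. Without WT replicate 3 Adamts1 was at 1.18 and passed (edgeR adjusted p = 0.0487), 1 of 2 genes of the list that did, the other being Timp3. In both, the library left out was far above the other WT libraries. It stood at 11.8 CPM against 4.75 and 4.23 for Adamts1, and at 94.8 CPM against 44.7 and 49.7 for Timp3. How many of all genes were called with 1 library left out is given below under processing, only as a range over such fits. Without WT replicate 3, 9.18% of all genes tested were higher at an unadjusted p below 0.05.

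Genes of oxygen sensing, which is the best known control of Vegfa, had a median close to that of all genes. Of 17 genes 15 were tested, 0 were called, 10 had a positive value and the median was 0.06. At an unadjusted p below 0.05 there were 0, against 6.99% of all tested genes higher and 9.38% lower. The lowest value was that of Ddit4 (-0.29, SE 0.32) and the highest that of Bnip3 (0.31, SE 0.14), both named after their values were seen. Hif1a, the oxygen-regulated subunit, stood at 91.3, 79.3 and 115.3 CPM in WT and at 105.0, 101.5 and 106.6 CPM in KO (0.13, SE 0.13). Epas1, its endothelial relative, was at 0.02 (SE 0.12), their partner Arnt at -0.08 (SE 0.07) and Vhl, which marks them for degradation, at 0.06 (SE 0.07). The groups overlapped in all of these 4. The part of oxygen sensing in the Vegfa value was not tested.

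**Figure D4:**
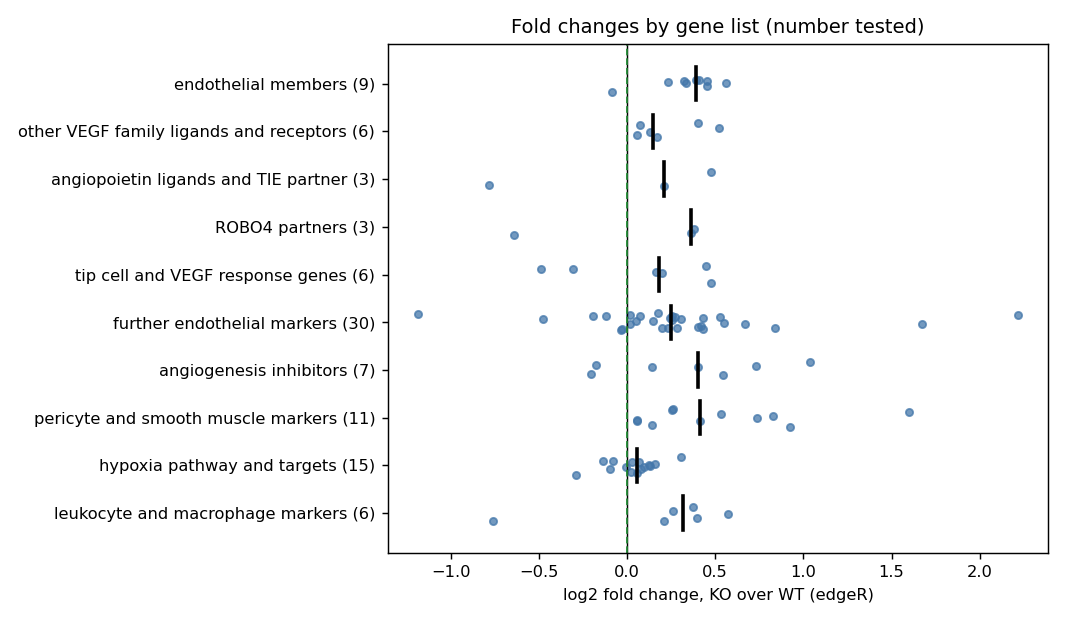
Log2 fold changes (x axis) of the tested genes of each list (points, scattered vertically for legibility) with the list's median (black bar); the dashed line is the median of all tested genes. The endothelial, the pericyte and smooth muscle, and the inhibitor lists have medians of 0.39, 0.42 and 0.40, and the hypoxia list lies at 0.06.

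The range of each gene's log2 fold change over the settings tried was as follows. Vegfa ran from -0.27 to -0.13 over the 16 alternatives, Flt1 from 0.47 to 0.76, Kdr from 0.33 to 0.56 and Cdh5 from 0.37 to 0.53. Robo4 ran from 0.36 to 0.57, Tie1 from 0.28 to 0.56, Plvap from 0.23 to 0.43, Esam from 0.22 to 0.44 and Pecam1 from 0.15 to 0.38. Tek alone reached both sides of 0, from -0.14 to 0.01.

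**Figure D5:**
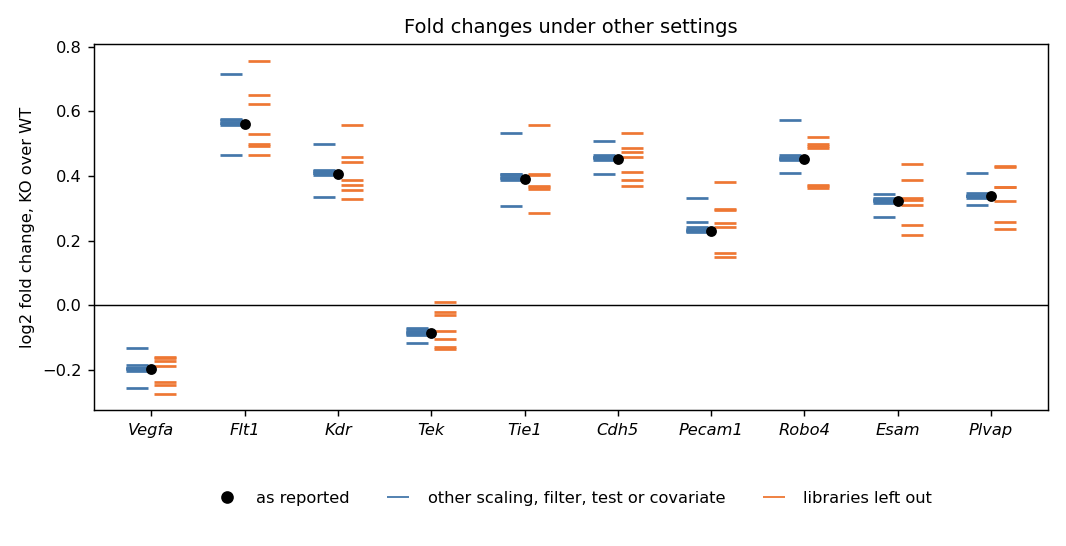
Log2 fold change of KO over WT (y axis) for each gene as reported (black points), under other scalings, filters, tests and covariates (blue bars) and with libraries left out (orange bars). Vegfa lies below 0 and the 8 endothelial genes other than Tek lie above 0 in each setting shown, while Tek lies at 0.01 with KO replicate 1 alone.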

How the data were processed

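Total RNA from 6 islet preparations was made into libraries with a TruSeq RNA kit, per the labels' protocols. The deposited table holds raw counts per gene, which the authors deposited as whole numbers without normalization, with 1 column per library and 0 columns left over. Tools named in the submitters' processing notes are HISAT2 2.1.0, CASAVA 1.8.2, DESeq2 and HTSeq, with genome build mm9. The sources used here do not say which gene models were counted or with which options, and without strand a gene's antisense reads cannot be told apart. Of the gene symbols 24 had been turned into dates, and these genes are not named.

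Counts were analysed with R 4.3.3 and edgeR 4.0.16. Genes were kept by filterByExpr, libraries scaled by TMM factors, and genotype tested with the quasi-likelihood F-test, with Benjamini-Hochberg adjustment over 15915 genes and calls at an adjusted p below 0.05. SEs are the log2 fold change over the root of its F. Exonic length, GC content and coordinates were taken from GENCODE vM1 (mm9), which covered 92.9% of tested genes by symbol or unique synonym. Promoter sequence came from RefSeq (GRCm38.p6). DESeq2 1.42.0, limma-voom (limma 3.58.1), other scalings and filters, the replicate number as a block, length and GC offsets (mgcv 1.9.3), an acinar covariate and leaving out libraries were alternatives. The edgeR script was tested on simulated data, where it called 19.4% of genes changed 1.5-fold and 73.1% of those changed 2-fold. Of the calls 10.1% were false. Figures used matplotlib 3.10.9.

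The 10 genes, the lists and the rules were chosen with earlier results of these data known. All 10 genes are named. In each pathway list the first 4 tested genes are named unless others are said to have been chosen after their values were seen. Genes of like pattern are the 8 with the highest correlation, of which 1 is not reported here.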

Additional observations from a re-analysis of the deposited data

How the results depend on the processing

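The directions of Vegfa and of the 8 endothelial genes other than Tek were the same under all 16 alternatives, and their calls changed only in DESeq2, where Flt1 (adjusted p = 0.0209), Kdr (adjusted p = 0.0482) and Cdh5 (adjusted p = 0.016) passed, 3 of the 10. Over all genes the number lower in KO was 27 as reported, 437 in DESeq2, 0 in limma-voom, 0 with the acinar covariate, 0 with KO replicate 1 alone against WT and 2 with the length and GC offsets, and leaving out 1 library gave 0 to 80. The number higher was 0 as reported (1113 at an unadjusted p below 0.05 in edgeR), 209 in DESeq2 and 1 with KO replicate 1 alone, and leaving out 1 library gave 0 to 9. The number of the 9 endothelial genes higher at an unadjusted p below 0.05 was 7 as reported, 4 to 8 with 1 library left out (4.15% to 9.18% of all genes tested in those fits) and 2 with KO replicate 1 alone (2.43%), where the WT libraries give all of the spread. The number without overlap was 2 with CPM of the total count, a scaling chosen for this count after seeing the data. The cause of these changes was not tested.

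With the replicate number as a block, 0 genes were called lower and 0 of the 10 passed. Same-numbered libraries had correlated deviations of 0.179, 0.0433 and 0.109, so the numbers were not taken to pair the libraries, and each library's deviation was closest to that of its own number, a hint from the data and not from the design.

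The check of signs did not cover Egfl7, Clec14a, Sox18, Lyl1, Lyve1, Prox1, Reln, Ddit4 and Bnip3. Nor did it cover Ptprc, Csf1r, Gp9, Timp3, Mcam, Mmrn2, Calcrl, Nid2, Cxcr4, Gtpbp3, Paupar, Xist and Ddx3y. The hormone genes, Pdx1, Mafa and the genes too low to be tested were left out as well. Signs turned for the genes that follow. With KO replicate 1 alone these were Tek at 0.011, Vegfc at -0.0066, Vhl at -0.0023, Cspg4 at -0.36 and Ets1 at 0.13. With the acinar covariate they were Vegfb at -0.0077, Epas1 at -0.018, Cspg4 at -0.21 and Ets1 at 0.18. With 1 library left out, the values that took both signs ran from -0.024 to 0.18 for Vegfb, from -0.12 to 0.30 for Vegfc, from -0.16 to 0.497 for Pgf, from -0.496 to 0.0078 for Kcne3, from -0.059 to 0.125 for Epas1, from -0.14 to 0.24 for Cspg4 and from -0.499 to 0.00022 for Ets1. The 10 genes, with at least 251 counts per library, had SEs of 0.08 to 0.16, and Angpt1, with 8 to 56 counts, had 0.55. Among the other named genes apart from Gtpbp3 and Paupar, calls changed in DESeq2 for Ins1, Ins2, Nrp1, Cd34, Adgrl4, Mcam, Lama4, Wwtr1, Tmem176a and Zer1. Without WT replicate 3 they changed for Nrp1, Adamts1, Timp3 and Lama4. Without KO replicate 1 Xist was called higher and Ddx3y lower. Paupar was called lower as reported (edgeR adjusted p = 0.0446). It was not called in limma-voom, with the replicate block or with the acinar covariate, where no gene was called lower. Its calls in the other settings are not given here.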
